A study of Homo sapiens with 2 samples.

Results

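The transcripts of 10 cell-surface adhesion molecules of the immunoglobulin superfamily were examined: JAM3, JAM2 and F11R (the junctional adhesion molecules JAM-C, JAM-B and JAM-A), ESAM, CXADR, NECTIN1, NECTIN2, NECTIN3, NECTIN4 and PVR. They were chosen by gene symbol for their family, with earlier results of these data known, and are 10 of the 58735 genes in the deposited table. RNA came from A2780, an established human ovarian cancer cell line, and was sequenced after poly(A) selection. The shJAM3 library was made from cells labelled as a JAM3 knockdown, and the shControl library from cells labelled WT, which the design text describes as carrying an empty vector. The design text names siRNA as the means of the stable knockdown, whereas the sample titles carry the prefix sh, and neither the construct nor the number of clones is given in the sources used here. There was 1 library in each group, so no test between the conditions exists, and every difference below is one between these 2 libraries.

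Junctional adhesion molecules sit at tight junctions and other cell contacts, where their extracellular domains bind each other and, on leukocytes, integrins, while their cytoplasmic tails bind PDZ-domain scaffolds such as PAR3 and ZO-1. Nectins form pairs across the cell boundary with themselves or with another nectin and are tied to actin by the scaffold afadin, which places them at adherens junctions beside the cadherins. PVR and NECTIN2 are also ligands of receptors on T and NK cells, and several of these molecules serve as entry receptors for viruses. In ovarian and other epithelia they help to hold the cell sheet together and to set its apical-basal polarity.

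Levels are given in FPKM, fragments per kilobase of exon length scaled to library size. Fragment numbers recovered from the FPKM summed to 16455079 in shJAM3 and 15570262 in shControl. Bracketed ranges are exact 95% intervals for counting error only; they leave out any spread between cultures, and copies made by PCR make them too narrow. A gene was taken as measured where its FPKM averaged 1 or more, which held for 8 of the 10 genes, all except JAM3 and JAM2. As these are bulk RNA samples, fewer cells expressing a gene and less RNA per cell cannot be told apart.

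Among the 8 measured genes the differences were moderate and mostly towards lower levels in shJAM3. None was 2-fold or more apart on the scale log2(FPKM + 1), a size that 1.8% of the 10499 measured protein-coding genes reached. By the same rule 1.3% of all 12214 measured genes were higher and 2.1% lower. F11R, NECTIN2, NECTIN1, CXADR, ESAM and PVR were lower in shJAM3 beyond counting error, which is 6 of 8, or 75%, against 36.8% of measured protein-coding genes. None was higher beyond counting error, against 34.5%. NECTIN3 and NECTIN4 had intervals that included a ratio of 1. The median log2 ratio of the 8 was -0.39, and that of all measured protein-coding genes was -0.01.

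JAM3, the targeted gene, had 14 fragments in shJAM3 and 18 in shControl, which is 0.154 FPKM (0.0842 to 0.258) and 0.215 FPKM (0.127 to 0.340). Both libraries were low and their ranges overlapped. The ratio of 0.716 had an interval of 0.330 to 1.52, and no difference in JAM3 could be detected from so few fragments. The shControl level would give 19.5 fragments in shJAM3 if the gene were equally abundant and 5.86 after the 70% reduction that the design text states as a minimum. The observed 14 fragments had an interval of 7.65 to 23.5. Both expected numbers treat the 18 shControl fragments as exact, whereas the interval of the ratio covers the counting error of both libraries. The lower end of that interval, 0.330, lay slightly above 0.3, the ratio that a 70% reduction would leave. JAM3 (ENSG00000166086) lies on chromosome 11 at 134068925 to 134152001, plus strand, GRCh38. Another gene, NCAPD3, lies on the opposite strand and covers 465 bases, or 8.53%, of the JAM3 exons. It encodes a condensin subunit and was at 36.0 FPKM in shJAM3 and 27.5 in shControl, a ratio of 1.31 (1.26 to 1.37). The protocol describes no step that marks the strand, so the origin of fragments from the shared bases was not tested.

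JAM2 encodes JAM-B, the main binding partner of JAM-C on neighbouring cells. It had 0 fragments in both libraries. With 3 fragments as the limit that a count of 0 allows, its level could reach 0.0303 FPKM in shJAM3 and 0.0329 in shControl. ATP5PF on the opposite strand shares 58 of its exon bases and had 611 fragments in shJAM3 and 336 in shControl.

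F11R encodes JAM-A, the junctional adhesion molecule that binds itself across tight junctions and serves as a reovirus receptor. It was the only one of the 3 JAM genes at a mean of 1 FPKM or more, with 408 fragments or 4.83 FPKM in shJAM3 and 662 fragments or 8.51 FPKM in shControl. Its ratio of 0.568 (0.501 to 0.643) was the lowest of the 9 detected genes. The 3 JAM genes together summed to 4.98 FPKM in shJAM3 and 8.72 in shControl, nearly all of it from F11R. F11R (ENSG00000158769) lies on chromosome 1 at 160995211 to 161021348, minus strand. A second protein-coding annotation on the same strand, AL591806.3, covers 36.6% of the F11R exon bases and had 1 fragment in shJAM3 and 0 in shControl. The sources used here do not give how fragments matching both annotations were counted.

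ESAM, an adhesion molecule best known from endothelial cells and platelets, was among the most abundant of the group. It had 13.7 FPKM in shJAM3 and 18.7 in shControl, from 667 and 837 fragments, a ratio of 0.734 (0.662 to 0.814). Endothelial markers did not accompany it. None of 8 markers (PECAM1, CDH5, KDR, TEK, TIE1, VWF, EMCN and CLDN5) reached a mean of 1 FPKM, the highest single value was 0.396 FPKM for CDH5 in shControl, and KDR and EMCN had 0 fragments in both libraries. The 8 summed to 0.557 FPKM in shJAM3 and 0.775 in shControl, so the level of ESAM was well above that of all 8 together in both libraries.

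CXADR, the coxsackievirus and adenovirus receptor of tight junctions, was at 2.57 FPKM in shJAM3 and 3.55 in shControl, from 286 and 364 fragments. Its ratio was 0.724 (0.618 to 0.847). CXADR has processed pseudogenes with which it could share reads, and CXADRP1, CXADRP2 and CXADRP3 all had 0 fragments in both libraries. The ratio of CXADR divided by that of ESAM was 0.986 (0.815 to 1.19) as deposited, but after centring on transcript GC content CXADR was the lower of the pair beyond counting error, with a log2 difference of -0.31.

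The 4 nectins spanned a wide range of levels, and NECTIN2 and NECTIN1 were lower in shJAM3 beyond counting error. The ratios of NECTIN1 and NECTIN4 were not distinguished (0.754, 0.551 to 1.03). NECTIN2, a ligand of the inhibitory receptors TIGIT and PVRIG, was at 15.0 FPKM in shJAM3 and 23.1 in shControl, from 937 and 1327 fragments, a ratio of 0.650 (0.598 to 0.708). NECTIN1, an entry receptor of herpes simplex virus, was at 4.75 FPKM in shJAM3 and 6.84 in shControl, from 610 and 809 fragments, a ratio of 0.695 (0.624 to 0.772). NECTIN3, which pairs with NECTIN1 and NECTIN2 across cell contacts, was at 2.37 FPKM in shJAM3 and 2.36 in shControl, from 244 and 224 fragments, a ratio of 1.00 (0.833 to 1.21). NECTIN4, a measles virus receptor and the target of an antibody-drug conjugate, had 96 fragments in each library, or 1.64 FPKM in shJAM3 and 1.78 in shControl, and its ratio was 0.921 (0.687 to 1.24). PVR (CD155), the poliovirus receptor and a ligand of TIGIT, CD226 and CD96, had the highest level of all 10 genes, 23.7 FPKM in shJAM3 and 30.3 in shControl, from 1391 and 1640 fragments, with a ratio of 0.781 (0.727 to 0.840). Nectins and PVR together made up 69.1% of the summed FPKM of the 10 genes in shJAM3 and 67.5% in shControl.

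**Figure D1:**
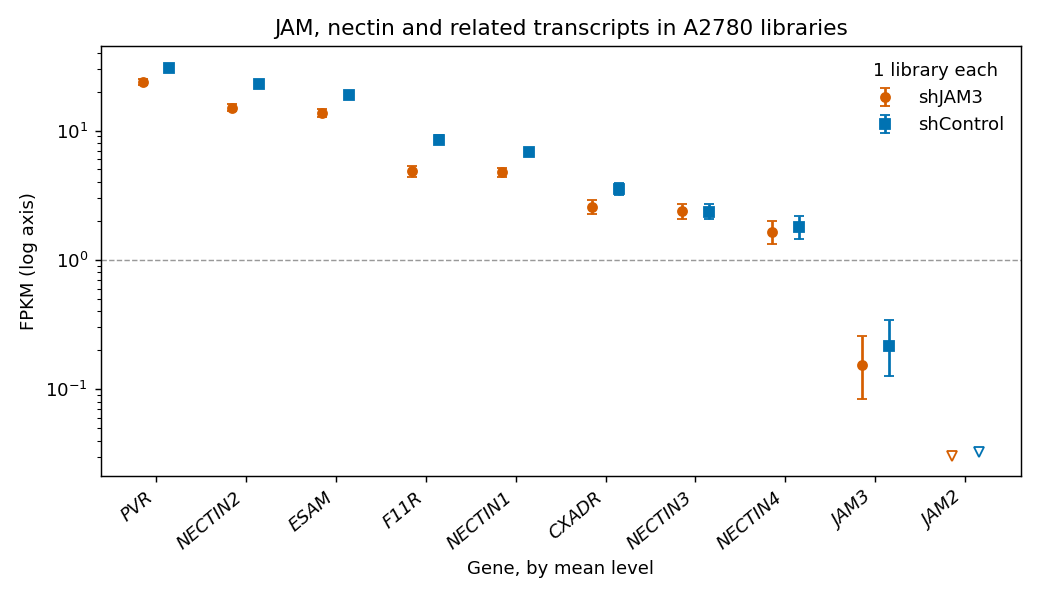
FPKM of the 10 genes on a log axis in shJAM3 (orange circles) and shControl (blue squares), 1 library each, with exact 95% counting intervals; open triangles mark the limit for a gene with 0 fragments and the dashed line marks 1 FPKM. PVR was highest at 23.7 FPKM in shJAM3 and 30.3 in shControl, while JAM3 lay at 0.154 and 0.215 FPKM and JAM2 had no fragment.

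Promoters of 4 of the 10 genes (PVR, NECTIN2, NECTIN3 and NECTIN4) were in the RefSeq promoter table for GRCh38.p14. Since the series concerns epigenetic silencing, CpG dinucleotides, the sites of DNA methylation, were counted in the 250 bases before each RefSeq start. These starts differ from the deposited gene coordinates, and each window overlaps its gene as deposited. The NECTIN3 window (111071566 to 111071815) lies wholly inside the gene, which begins at 111070071. PVR and NECTIN3 had 27 each, NECTIN2 had 19 and NECTIN4 had 6, where the median over 35116 promoters of that length was 11. At least 27 occurred in 17.7% of those promoters, at least 19 in 34.7% and at least 6 in 61.9%. The most CpG-rich promoters thus belonged to the gene with the highest level and to one near the low end. The motif GGGCGG, a GC box, searched on both strands without overlaps and itself holding a CpG, occurred 3 times in NECTIN2, 5 times in NECTIN3, 2 times in NECTIN4 and not in this window of PVR, and was present in 42.6% of all such promoters. DNA methylation was not measured here. NECTIN2 and NECTIN4, the nectins with the highest and lowest level, are shown, with each CG in capitals. The NECTIN2 window is chr19:44846047-44846296 on the plus strand and the NECTIN4 window is chr1:161089559-161089808 on the minus strand, both 5′ to 3′ along the gene.
NECTIN2: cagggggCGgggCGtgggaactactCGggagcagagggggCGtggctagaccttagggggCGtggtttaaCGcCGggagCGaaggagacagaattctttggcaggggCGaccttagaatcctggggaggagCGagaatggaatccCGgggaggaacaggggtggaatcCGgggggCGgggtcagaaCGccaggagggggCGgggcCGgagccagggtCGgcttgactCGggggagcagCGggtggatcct
NECTIN4: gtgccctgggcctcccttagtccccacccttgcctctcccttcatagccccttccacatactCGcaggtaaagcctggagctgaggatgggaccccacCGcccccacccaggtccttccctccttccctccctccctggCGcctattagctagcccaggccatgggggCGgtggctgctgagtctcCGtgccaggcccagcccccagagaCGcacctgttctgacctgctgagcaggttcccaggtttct
The runs of lower case between capitals are longer in NECTIN4, whose GC content in this window was 65.2%, close to the 67.6% of NECTIN2 in spite of the smaller number of CpGs.

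The order of the levels was the same in both libraries: PVR, NECTIN2, ESAM, F11R, NECTIN1, CXADR, NECTIN3, NECTIN4, JAM3, JAM2. In shControl each neighbouring pair down to JAM3 differed beyond counting error. In shJAM3, 3 neighbouring pairs did not: NECTIN2 over ESAM was 1.09 (0.990 to 1.21), F11R over NECTIN1 was 1.02 (0.895 to 1.15), and CXADR over NECTIN3 was 1.08 (0.911 to 1.29). In shControl the same ratios were 1.24 (1.13 to 1.35), 1.24 (1.12 to 1.38) and 1.50 (1.27 to 1.78). Levels between genes depend on the length used. With the length of the longest coding transcript in GENCODE 29 in place of the deposited exon total, NECTIN2 stood above PVR in shControl and NECTIN1 above F11R and NECTIN3 above CXADR in both libraries, though these last differences were within counting error in shControl.

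Ratios of single genes were also compared with each other, which removes any scaling between the libraries. Of the 28 pairs among the 8 measured genes, 13 had ratios that differed beyond counting error. F11R and NECTIN3, at the ends of the range as deposited, each entered into 6 such pairs of a possible 7. The share over pairs of other genes was not computed, so the count of 13 is not read as a trait of this family. Of single measured protein-coding genes, 34.5% were higher and 36.8% lower beyond counting error. The ratio of F11R was 0.566 times that of NECTIN3 (0.452 to 0.709), and F11R transcripts stood at 2.04 times the NECTIN3 level in shJAM3, against 3.61 times in shControl. F11R and NECTIN2 were not distinguished (0.873, 0.750 to 1.02). NECTIN4, with 96 fragments in each library, was apart from F11R and NECTIN2 alone. The balance between NECTIN2 and PVR, ligands that share the receptors TIGIT and CD226, also differed: NECTIN2 was at 0.633 times the PVR level in shJAM3, against 0.760 times in shControl, a ratio of ratios of 0.833 (0.745 to 0.931). Which pairs stood apart depended on GC centring, in which each ratio is divided by the median ratio of genes with like transcript GC content. After it 14 pairs differed, of which 7 were among the 13. NECTIN3 was then apart from F11R and CXADR only, so its differences from NECTIN2, NECTIN1, ESAM and PVR were lost. CXADR entered into 6 pairs, against 2 as deposited, and was apart from ESAM and NECTIN4. F11R became distinct from NECTIN2, with a centred log2 difference of -0.54, whereas F11R from CXADR and NECTIN2 from NECTIN4 were no longer apart.

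Some of these genes lie on the same chromosome. PVR and NECTIN2 lie 182.6 kb apart on chromosome 19 and were both lower in shJAM3. F11R and NECTIN4 lie 49.6 kb apart on chromosome 1, and the ratio of F11R was 0.616 times that of NECTIN4 (0.447 to 0.850). PVR (44643798 to 44663583) and NECTIN2 (44846175 to 44889228) are on the plus strand, and F11R and NECTIN4 (161070995 to 161089599) on the minus strand. Of the PVR exon bases 3.44% are shared with CEACAM19 on the same strand, which was at 1.52 FPKM in shJAM3 and 0.913 in shControl. NECTIN1 (119623408 to 119729084) and ESAM (124752583 to 124762290) lie on the minus strand of chromosome 11, CXADR (17512382 to 17593579) and JAM2 (25639272 to 25717562) on the plus strand of chromosome 21, and NECTIN3 (111070071 to 111275563) on the plus strand of chromosome 3.

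Across the measured protein-coding genes the log2 ratio of shJAM3 to shControl moved with the GC content of the transcript. In 20 bins of GC the median was lower towards high GC, with 0.24 in the bin of lowest GC and -0.50 in the bin of highest GC. Its part in the ratios of single genes was not tested, but each gene could be set against genes of like GC. F11R has a transcript GC of 47.6%, and its log2 ratio of -0.71 lay below the 10th percentile of its bin (-0.35), with 1.52% of the 525 genes in that bin lower. CXADR, at 39.8% GC, had a log2 ratio of -0.35, also below the 10th percentile of its bin (-0.26), with 5.33% of genes lower. ESAM at 53.9% GC and NECTIN2 at 59.4% lay inside their bins' 10th to 90th percentile, with 14.5% and 14.9% of genes lower. NECTIN1, PVR, NECTIN3 and NECTIN4 had 24.8%, 30.9%, 30.3% and 52.4% of the genes in their bins below them.

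**Figure D2:**
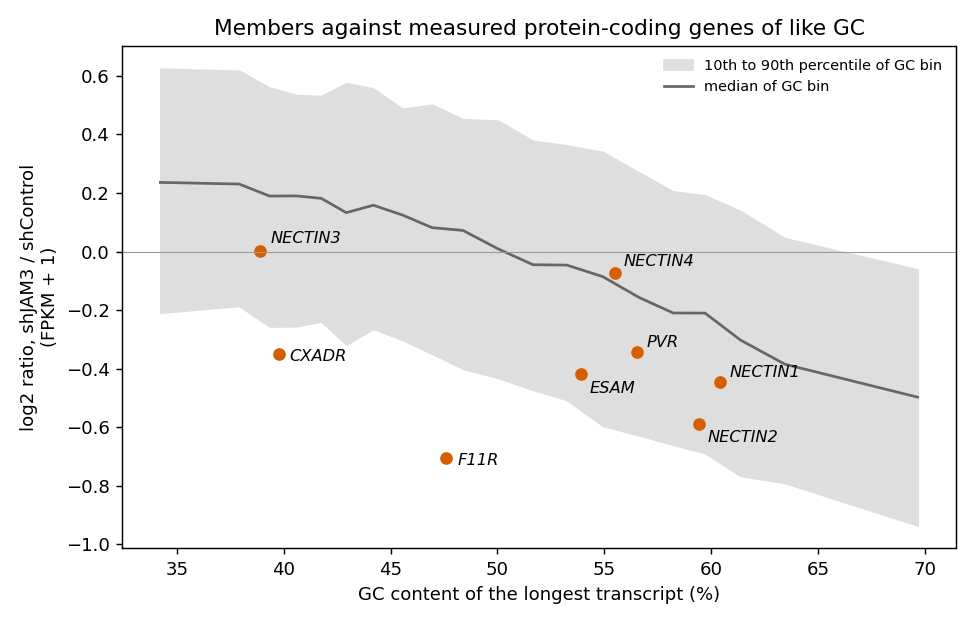
Log2 ratio of shJAM3 to shControl on FPKM + 1 against the GC content of the longest transcript for the 8 measured genes (orange), with the median (line) and the 10th to 90th percentile (grey) of 20 GC bins of measured protein-coding genes. F11R at -0.71 and CXADR at -0.35 lie below the grey band of their bins.

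After each ratio was centred on the median of its GC bin, the same 6 genes had intervals below 1, against 33.4% of measured protein-coding genes. The order changed. F11R was at 0.531 (0.468 to 0.601) and CXADR at 0.616 (0.526 to 0.722), lower than as deposited. NECTIN2 was at 0.773 (0.711 to 0.842), NECTIN1 at 0.826 (0.742 to 0.919) and PVR at 0.884 (0.822 to 0.950), closer to 1 than as deposited. ESAM was little changed at 0.764 (0.689 to 0.847). NECTIN3 was at 0.855 (0.710 to 1.03), NECTIN4 at 0.988 (0.737 to 1.32) and JAM3 at 0.679 (0.313 to 1.45), intervals that include 1.

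**Figure D3:**
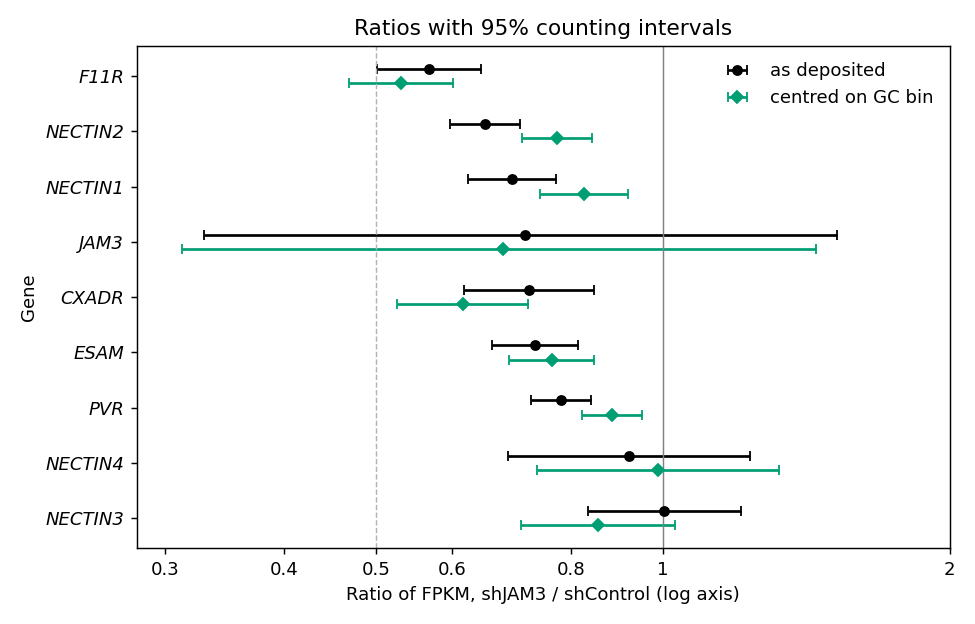
Ratio of FPKM in shJAM3 over shControl on a log axis for the 9 genes with fragments, as deposited (black circles) and centred on the GC bin (green diamonds), with exact 95% counting intervals; the solid line marks 1 and the dashed line 0.5. F11R is lowest at 0.568 as deposited and 0.531 centred, and JAM3 has the widest interval.

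The plaque and polarity partners of these molecules, not all of which bind their cytoplasmic tails directly, went both ways. Of 17 such genes 15 were measured, 9 with a log2 ratio below 0 and 6 above. Beyond counting error 7 were lower and 3 higher, where 36.8% of all measured protein-coding genes were lower and 34.5% higher. None of the 15 was 2-fold apart, a size that 1.8% of measured protein-coding genes reached. The median log2 ratio of the 15 was -0.07, and -0.22 after GC centring, where the median of the 8 measured members was -0.31. PARD6B and PARD3, parts of the PAR polarity complex that JAM proteins recruit, were lower. PARD6B was at 1.00 FPKM in shJAM3 and 2.05 in shControl (ratio 0.488, 0.367 to 0.646), and PARD3 at 7.68 FPKM in shJAM3 and 11.6 in shControl (ratio 0.659, 0.603 to 0.721). The complex was not lower as a whole. PRKCI was higher, at 31.0 FPKM in shJAM3 and 25.3 in shControl (ratio 1.23, 1.16 to 1.29). PARD6A was lower as deposited (ratio 0.718, 0.522 to 0.983), and the intervals of PARD6G and PRKCZ included a ratio of 1. After GC centring the log2 ratios were -0.80 for PARD6B, -0.55 for PARD3 and 0.01 for PARD6A. Those of PARD6G, PRKCI and PRKCZ were then 0.08, 0.09 and 0.14. PICK1, a PDZ protein that binds JAM and nectin tails, was at 4.82 FPKM in shJAM3 and 7.10 in shControl (ratio 0.678, 0.589 to 0.780). TJP1, which encodes ZO-1, was higher, at 5.58 FPKM in shJAM3 and 3.64 in shControl (ratio 1.53, 1.39 to 1.69). AFDN, which encodes afadin and was added after its value was seen as the scaffold of nectins, was at 3.75 FPKM in shJAM3 and 4.70 in shControl (ratio 0.798, 0.728 to 0.876).

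In the classical cadherin complex, the other adhesion system of adherens junctions, 6 of 8 genes were measured, 4 above 0 and 2 below on the log2 scale, with a median of 0.12. CDH1, which encodes E-cadherin, had 25 fragments in shJAM3 and 16 in shControl and stayed under 1 FPKM, while CDH2, which encodes N-cadherin, was at 8.72 FPKM in shJAM3 and 8.11 in shControl (ratio 1.07, 0.964 to 1.20). JUP, which encodes plakoglobin, was at 157.5 FPKM in shJAM3 and 248.3 in shControl (ratio 0.634, 0.620 to 0.649), and the actin-linking VCL at 33.0 FPKM in shJAM3 and 51.6 in shControl (ratio 0.639, 0.617 to 0.661). The catenins CTNNB1 (ratio 1.19, 1.13 to 1.25) and CTNND1 (ratio 1.15, 1.08 to 1.23) were higher.

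Few receptors for these molecules on other cells reached a mean of 1 FPKM. Of 13 immune receptors and integrins 3 were measured and 5 had 0 fragments in both libraries, namely TIGIT, CD96, CRTAM, ITGAL and ITGA4. ITGB1, the beta-1 integrin, was at 108.3 FPKM in shJAM3 and 74.0 in shControl (ratio 1.46, 1.42 to 1.51). ITGAV, the alpha-v integrin, was at 9.77 FPKM in shJAM3 and 13.2 in shControl (ratio 0.739, 0.687 to 0.794). ITGB2, the beta-2 integrin, was at 1.33 FPKM in shJAM3 and 1.58 in shControl (ratio 0.843, 0.671 to 1.06). Of 9 relatives in the CTX family (named after a thymocyte antigen of Xenopus), to which the JAMs, ESAM and CXADR are akin, 2 were measured. CLMP, a CXADR-like molecule, was higher at 22.0 FPKM in shJAM3 and 17.5 in shControl (ratio 1.25, 1.17 to 1.35), and VSIG10 was lower with a ratio of 0.737 (0.656 to 0.827). Of the 4 nectin-like CADM genes 2 were measured, CADM1 at a ratio of 1.43 (1.20 to 1.70) and CADM4 at 0.703 (0.586 to 0.842). Of the membrane proteases that shed such molecules, ADAM10 had a ratio of 1.29 (1.20 to 1.40) and ADAM17 of 0.855 (0.774 to 0.946).

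**Figure D4:**
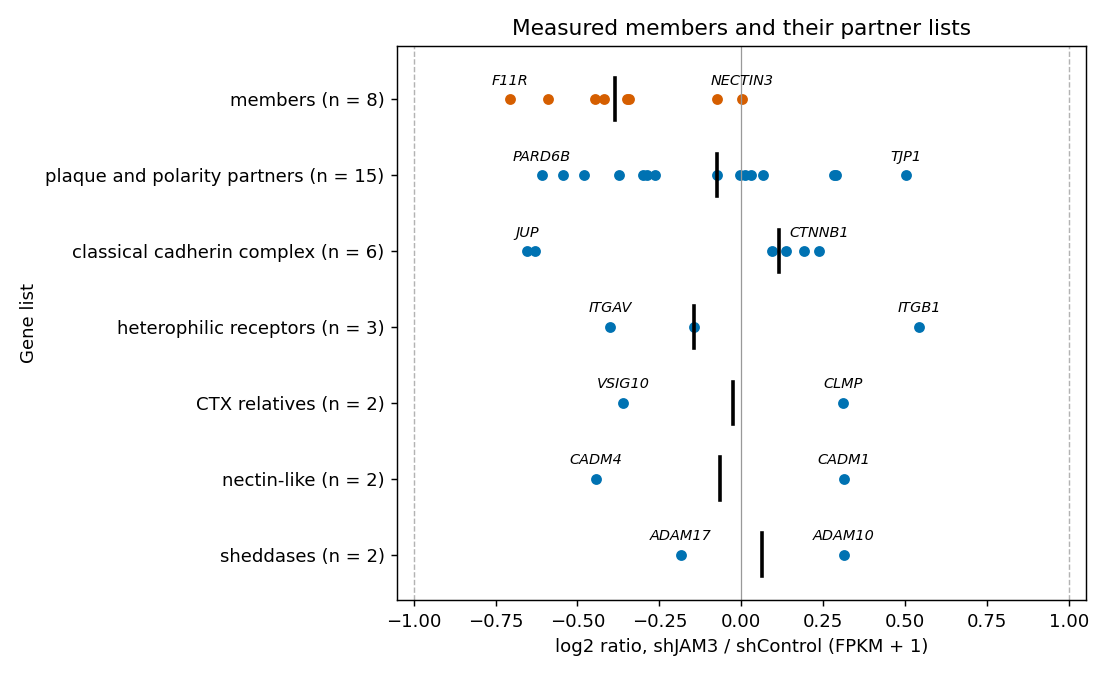
Log2 ratio of shJAM3 to shControl on FPKM + 1 for each measured gene, for the 8 measured members of the JAM and nectin group (orange) and 6 lists of related genes (blue); black bars are medians, n is the number of measured genes and dashed lines mark 2-fold. The members' median is -0.39 and that of the plaque and polarity partners is -0.07; after GC centring, not plotted, they are -0.31 and -0.22.

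The identity of the cells was checked against marker lists. The epithelial keratins KRT8 and KRT18 were at 153.3 and 165.2 FPKM in shJAM3 and at 138.6 and 144.8 FPKM in shControl, whereas EPCAM, KRT19 and CDH1 stayed under 1 FPKM in both libraries. Of 5 ovarian carcinoma markers, MSLN and FOLR1 were measured, and WT1 had 0 fragments in shJAM3 and 1 in shControl. MSLN was lower in shJAM3 (ratio 0.641, 0.619 to 0.664) and FOLR1 higher (ratio 1.20, 1.18 to 1.22). With a transcript GC of 65.4%, MSLN had a log2 ratio of -0.64 as deposited and -0.14 after GC centring. For FOLR1 these were 0.26 and 0.35. PAX8 and MUC16 averaged under 1 FPKM and also went opposite ways. PAX8 had 65 fragments in shJAM3 and 127 in shControl (ratio 0.47, 0.34 to 0.64), and MUC16 had 783 and 320 (ratio 2.3, 2.0 to 2.6). Of 6 leukocyte markers only CD14 reached a mean of 1 FPKM, with 24 fragments in shJAM3 and 66 in shControl, and PTPRC, LYZ and TYROBP had none. Of 6 fibroblast markers COL1A1 and PDGFRB were measured, and COL1A2 had 0 fragments. The 6 leukocyte markers summed to 1.36 FPKM in shJAM3 and 2.66 in shControl, and the 6 fibroblast markers to 14.4 in shJAM3 and 17.4 in shControl. The part of other cells in the results was not tested.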

How the data were processed

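The authors deposited 1 table of FPKM values for 58735 genes, with 1 column per library and each gene's symbol, coordinates and length. The submitters' processing notes list featureCounts 1.5.0-p3, edgeR 3.22.5, DESeq2 1.20.0, fastp, STAR, STAR-Fusion, HISAT2 2.0.5 and GATK 4.1.1.0 without saying what each was used for. The sources used here give neither genome build nor annotation; the coordinates, symbols and exon lengths of all 58735 genes equalled those of GENCODE release 29 (GRCh38).

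FPKM times length was a whole multiple of 1 step in each library for 100% of values above 0 (tolerance 0.001 fragments), and the step was taken as 1 fragment. The implied library sizes, 16678451 for shJAM3 and 15361731 for shControl, are 1.01 and 0.987 times the recovered totals, so the deposited values carry a further scaling between libraries, by a method that the sources used here do not state. Of rows sharing a symbol the one with the highest mean was kept, which left 57169.

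Ratios are shJAM3 over shControl. Their exact 95% intervals are conditional binomial (Clopper-Pearson), those of levels are Poisson, and ratios of ratios have conditional odds-ratio intervals. The log2 ratio used FPKM + 1, which understates differences of low genes. With 1 library per group no test or p-value is given; a difference of 2-fold was the rule of size. GC content was that of the longest GENCODE 29 transcript, in 20 bins of 10496 measured protein-coding genes. Scripts used Python 3.11.15, NumPy 2.4.6, pandas 2.3.3, SciPy 1.17.1 and matplotlib 3.10.9. The size rule and intervals were run on simulated Poisson counts, the model that the intervals assume. Those counts held no spread between cultures and no PCR copies, so they cannot show how the intervals hold in real libraries.

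All 10 genes are described. Of each related list up to 4 measured genes with the largest absolute log2 ratio were named, besides genes overlapping a member on the chromosome. CDH1, CDH2, AFDN and receptors with 0 fragments were named in addition, for their role. PRKCI, PARD6A, PARD6G and PRKCZ were added to cover the rest of the PAR complex. The genes and lists were chosen with earlier results of these data known. The alternatives were a pseudocount of 0.1 FPKM, scaling by total fragments, median centring, GC-bin centring, no filter on low values and a mean of at least 5 FPKM.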

Additional observations from a re-analysis of the deposited data

How the results depend on the processing

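The 6 genes lower in shJAM3 kept that direction and an interval below 1 under scaling by total fragments, median centring and GC-bin centring, and no measured member reached 2-fold under any alternative, including a pseudocount of 0.1 FPKM, no filter and a mean of at least 5 FPKM. GC-bin centring moved the log2 ratios of NECTIN1 to -0.24, NECTIN2 to -0.38 and PVR to -0.19, and the list medians to 0.017 for the cadherin complex, 0.064 for the receptors, -0.17 for the 2 ADAM proteases, -0.22 for the plaque and polarity partners and -0.14 for the CTX relatives. The members' median stayed between -0.45 and -0.31. The log2 ratios of NECTIN3 and NECTIN4 changed sign between settings. Of all measured genes, 159 were 2-fold higher and 257 lower; a pseudocount of 0.1 FPKM gave 361 and 477, a mean of at least 5 FPKM gave 52 and 141, no filter gave 254 and 350, and GC-bin centring gave 163 and 177.

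Chosen after seeing the data, the length of the longest coding transcript changed levels between genes. In shJAM3 the log2 level ratio was 0.14 for PVR over NECTIN2, -0.31 for F11R over NECTIN1 and -0.54 for CXADR over NECTIN3. In shControl these were -0.13, -0.017 and -0.071, where the deposited lengths gave 0.40, 0.31 and 0.59. GC centring of the pairs, also chosen afterwards, left 14 of 28 pairs apart, against 13 as deposited, with 7 pairs in common. No paired analysis was possible because each group has 1 library. Depth limits JAM3, JAM2 and NECTIN4 most.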
